A study of Physcomitrium patens with 6 samples.

Results

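Abscisic acid (ABA) is the plant hormone of drought and osmotic stress. It is bound by soluble receptors that, with the hormone, block a group of protein phosphatases; kinases held in check by those phosphatases then phosphorylate transcription factors that switch target genes on. Mosses use the same core pathway, and moss filaments given ABA are known to become more tolerant of freezing and drying. Described here are 97 genes of the moss Physcomitrium patens whose transcripts were already abundant before ABA and were higher again after an hour of it. They were selected on 3 measured values among 32926 gene IDs: a mean of at least 100 CPM (the reads of a gene per 1e+06 gene reads of its library, with TMM scaling between libraries) over both 0 minute libraries, a mean at 60 minutes at least 2 times that mean, and both 60 minute libraries above both 0 minute libraries. The levels and the difference between 60 and 0 minutes therefore chose the members and are given below as a description.

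The mRNA came from protonema, the branching filaments of the young moss plant, aged 10 days, broken up by sonication and grown for 3 days in shaken liquid medium. The labels name no strain or mutation. There were 3 groups, collected at 0, 30 and 60 minutes of ABA; each time had 2 biological replicates. The ABA dose reads 10 µM in the series design and 10 mM in the treatment protocol, so it is not certain. Control cultures received the same volume of methanol, the carrier, and ABA and the time elapsed after an addition cannot be told apart for a treated time against 0 minutes. These were whole cultures, in which more cells of a type and more RNA per cell cannot be told apart. No gene ID matched an entry of the RefSeq table used here, so the members are reported by ID, with no gene name, function or position, no sequence is shown, and markers of protonema could not be looked up.

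Libraries held between 12450250 and 17822775 gene reads. The smallest count of any member in any library was 1725 reads, so counting error is small beside the differences given below. Replicates at 60 minutes stood further apart than at the earlier times. Over the 97 members the median gap between the replicates was 1.09-fold at 0 minutes, 1.04-fold at 30 minutes and 1.15-fold at 60 minutes. At 60 minutes 72 of 97 members were higher in replicate 2. The 1276 other genes at 100 CPM or more at 0 minutes had like values there, with 73.6% higher in replicate 2 and a median gap of 1.16-fold. The p-values below measure the spread between 2 cultures per time.

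Of 1373 genes with at least 100 CPM at 0 minutes, 97 (7.06%) had a mean at 60 minutes at least 2 times the mean at 0 minutes, and for each of these both 60 minute libraries lay above both 0 minute libraries. A further 79 had a ratio of 0.5 or lower, and 1197 lay between these bounds. Of all genes tested, 13% were called higher at 60 than at 0 minutes with a fitted change of at least 2-fold. Most members were near the lower limit of abundance: 63 had 100 to under 200 CPM at 0 minutes, 26 had 200 to under 500 CPM and 8 had 500 CPM or more. Ratios of 60 to 0 minutes ran from 2.01 to 13.2 with a median of 2.55; 60 members had a ratio under 3, 22 one of 3 to under 5, and 15 one of 5 or more.

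**Figure D1:**
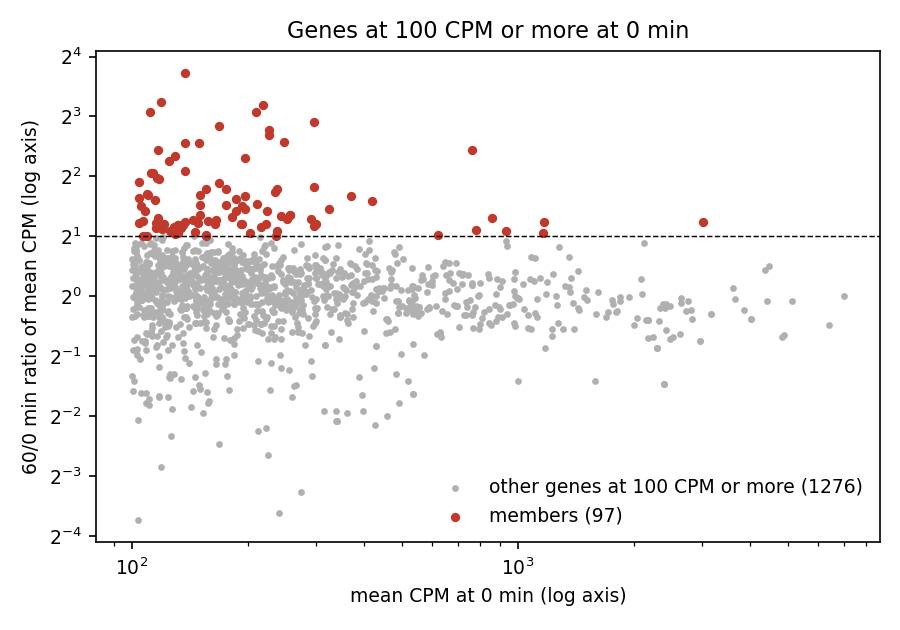
Mean CPM at 0 minutes (log axis) against the ratio of mean CPM at 60 minutes to that at 0 minutes (log axis) for the 1373 genes with at least 100 CPM at 0 minutes. Red points are the 97 members, grey points the 1276 other genes, and the dashed line is the ratio of 2 that the choice used; 63 of the members lie under 200 CPM at 0 minutes.

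Both limits of the choice cut through a continuous range. The 3 members with the lowest ratios had 2.006, 2.011 and 2.012, and the 3 abundant genes just outside had 1.996, 1.995 and 1.991. The 3 members with the lowest level at 0 minutes had 104.35, 104.45 and 104.74 CPM, and the 3 genes just below the limit that otherwise met the choice had 99.85, 98.02 and 97.21 CPM. In all, 17 members had a ratio under 2.2, while 24 other abundant genes had a ratio of 1.8 to under 2. The lower of the 60 minute libraries was at least 2 times the higher of the 0 minute libraries for 73 of the 97 members.

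How the members had moved by 30 minutes was not used to choose them, although the 0 minute libraries enter both the choice and this comparison. All 97 members had both 30 minute libraries above both 0 minute libraries, against 36.4% of the 18949 genes tested. The edgeR quasi-likelihood test, with Benjamini-Hochberg adjusted p over all genes tested, called 88 members higher at 30 than at 0 minutes, none lower and 9 without a call; 19.6% of all genes tested were called higher. None was lower at an unadjusted p under 0.05 or by DESeq2 either. The median log2 fold change of the members at 30 minutes was 0.74, against -0.02 over all genes tested. Ratios of 30 to 0 minutes ran from 1.18 to 8.61 with a median of 1.67, and 32 members had already reached 2-fold. Scaling changed the count. With upper-quartile factors, which moved the median of all genes tested to -0.26, 71 members were called higher and 26 had no call. Of all genes tested, 13.5% were then called higher. The early rise was not particular to the members. In the main fit 90.7% of them were called higher at 30 minutes. Of genes that met the other criteria, 95.7% of those from 10 to under 100 CPM at 0 minutes were called higher. From 1 to under 10 CPM it was 87.4%. Both 30 minute libraries lay above both 0 minute libraries for 99.2% and 96% of these 2 groups.

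The interval from 30 to 60 minutes was compared in the same way, here with the 60 minute libraries shared with the choice. Between 30 and 60 minutes 87 members rose further, none fell and 10 had no call in the same test, against 17.4% of all genes tested called higher. At an unadjusted p under 0.05, 1 member was lower, and DESeq2 called none lower. Both 60 minute libraries lay above both 30 minute libraries for 95 members, against 33.7% of all genes tested. The median log2 fold change from 30 to 60 minutes was 0.72, against 0.01 over all genes tested. Which interval had the larger median depended on scaling: the members' medians from 30 to 60 minutes and from 0 to 30 minutes were 0.72 and 0.74 with TMM, 0.39 and 0.60 with total counts alone and 0.62 and 0.50 with upper-quartile factors. With TMM the log2 change was larger in the first interval for 56 members and in the second for 41. With total counts alone 58 members were called higher and 1 lower. Of all genes tested, 6.75% were then called higher, and their median was -0.31. Leaving out replicate 1 or replicate 2 at 30 minutes also gave 58 each time.

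As a description, edgeR called all 97 members higher at 60 than at 0 minutes, where 28.4% of all genes tested were called higher; the choice used this comparison, so the count shows nothing further. Over the members the lowest mean was 104.4 CPM at 0 minutes, 149.3 CPM at 30 minutes and 216.2 CPM at 60 minutes. The medians were 164.6 CPM, 320.2 CPM and 505.9 CPM at those times, and the highest were 3025 CPM, 4269 CPM and 7163 CPM.

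**Figure D2:**
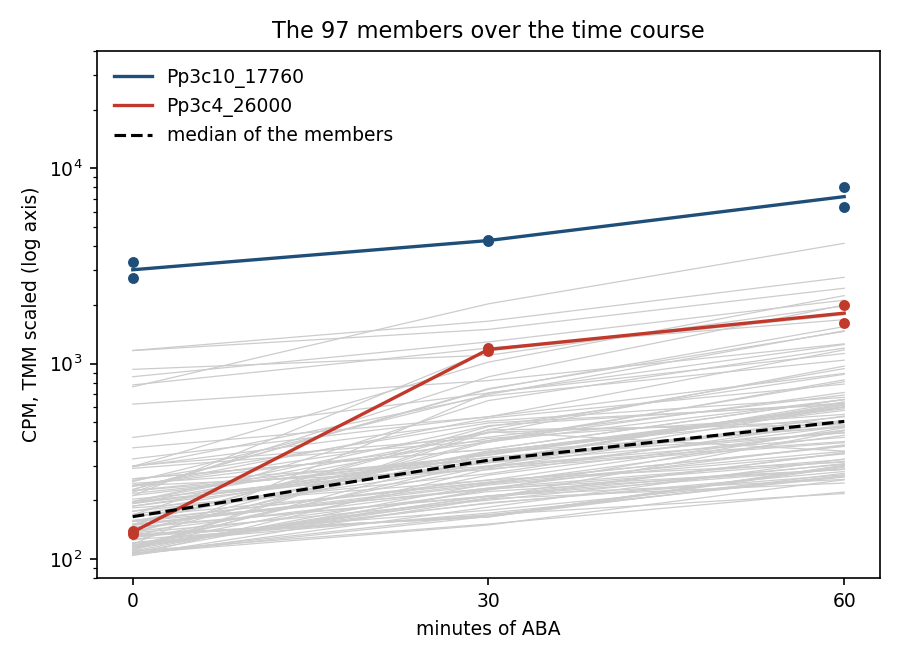
CPM with TMM scaling (log axis) at 0, 30 and 60 minutes of ABA. Grey lines are the means of the single members, the dashed line their median (164.6, 320.2 and 505.9 CPM), and coloured lines the means of Pp3c10_17760 and Pp3c4_26000 with a point for each library.

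The member with the most reads at 60 minutes was Pp3c10_17760. It had 2746 and 3303 CPM at 0 minutes, 4232 and 4306 CPM at 30 minutes and 6341 and 7984 CPM at 60 minutes. The groups did not overlap at any step, and the 60 minute replicates differed by more than those at 30 minutes. Its means were 4269 ± 52.5 CPM at 30 minutes and 3025 ± 394.2 CPM at 0 minutes, a log2 fold change of 0.50 (SE 0.18, Benjamini-Hochberg adjusted p = 0.0469 by edgeR's quasi-likelihood test). At 60 minutes the mean was 7163 ± 1162 CPM (SD, n = 2 at each time), and the log2 fold change from 30 minutes was 0.75 (SE 0.18, adjusted p = 0.00738 in the same test), a call that was lost without either 30 minute library. Ordered by reads, it stood at places 19 and 16 among all genes in the 0 minute libraries, at places 7 and 6 in the 30 minute libraries and at place 2 in both 60 minute libraries. Read counts grow with transcript length as well as with abundance, and lengths were not available, so these places rank reads and not molecules. The call at 30 minutes was close to the threshold: it was lost with RLE size factors, with upper-quartile factors and without either library at 0 or 30 minutes, where the log2 fold change ranged from 0.25 to 0.65.

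The largest ratio belonged to Pp3c4_26000. Its libraries held 139.7 and 134.7 CPM at 0 minutes, 1201 and 1163 CPM at 30 minutes and 1621 and 2006 CPM at 60 minutes. Most of its rise was in place by 30 minutes, when both libraries stood far above both 0 minute libraries. The mean at 30 minutes was 8.61 times that at 0 minutes (log2 fold change 3.11, SE 0.15, Benjamini-Hochberg adjusted p = 1.83e-08 by edgeR's quasi-likelihood test). From 30 to 60 minutes the log2 fold change was 0.62 (SE 0.14, adjusted p = 0.00624), which was no longer called without either 30 minute library. At 60 minutes the mean was 1813 ± 272.1 CPM, against 137.2 ± 3.56 CPM at 0 minutes (SD, n = 2), a ratio of 13.2.

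By their calls in both intervals, 0 to 30 and 30 to 60 minutes, the members were sorted into 3 courses, whose sizes depended on the fit. Members without a call at 30 against 0 minutes numbered 9 in the main fit and 3 with replicate number as a block. In a fit to only the 4 libraries compared there was 1. For 60 against 30 minutes these numbers were 10, 5 and 16. The first and by far the most common was a rise in both intervals, called for 78 of the 97 (80.4%, against 8.46% of all genes tested). Among genes that met the other criteria it was called for 68.5% of those from 10 to under 100 CPM and 52.6% of those from 1 to under 10 CPM. These 78 genes had a median ratio of 1.68 from 0 to 30 minutes and of 1.67 from 30 to 60 minutes. In 46 of them the log2 change with TMM was larger in the first interval. All 15 members with a ratio of 5 or more at 60 minutes took this course, as did 18 of 22 with a ratio of 3 to under 5 and 45 of 60 with a lower one. That ratio was used in the choice and combines the changes of both intervals. A larger ratio thus favours a call in both, and nothing further is read from this order.

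The second course was a rise by 30 minutes with no call after it, seen in 10 members (10.3%, against 8.67% of all genes tested). It was more common among genes that met the other criteria. There it was seen in 23.3% of those from 10 to under 100 CPM and 29.5% of those from 1 to under 10 CPM. The median ratio of the 10 members at 30 minutes was 2.04, and the median from 30 to 60 minutes was 1.22. Their level at 0 minutes was between 104.7 and 252.1 CPM, so none of the 8 members at 500 CPM or more was among them. With 10 of the 97 members in this course, a set of 8 is too small to read anything from that. Adjusted p in edgeR's quasi-likelihood test for 60 against 30 minutes ran from 0.0509 to 0.632 over these 10, so several lay close to the threshold. In 8 of the 10 both 60 minute libraries lay above both 30 minute libraries, so the missing call does not show that they were unchanged. Of the 10, Pp3c3_19970, singled out after its values were seen, was the sole member whose mean was lower at 60 than at 30 minutes. It had 118.1 and 102.2 CPM at 0 minutes, 453.7 and 441.4 CPM at 30 minutes and 316.9 and 396.5 CPM at 60 minutes. Both 30 minute libraries lay above both 60 minute libraries, with a log2 fold change from 30 to 60 minutes of -0.33 (SE 0.14, adjusted p = 0.0824 in the same test).

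The third course was no call at 30 minutes and a rise after it, in 9 members (9.28%, against 7.6% of all genes tested). Among genes that met the other criteria it was seen in 4.23% of those from 10 to under 100 CPM. From 1 to under 10 CPM it was 10.8%. Ratios of the 9 members at 30 minutes were between 1.18 and 1.40, with adjusted p from 0.0574 to 0.235 in edgeR's quasi-likelihood test. In each of the 9 both 30 minute libraries nevertheless lay above both 0 minute libraries, so the missing call does not show that they were unchanged. From 30 to 60 minutes their median ratio was 1.70. They ended with ratios of 60 to 0 minutes between 2.01 and 2.38, all in the lower part of the members' range. The largest of them by reads was Pp3c1_23920, described below with its neighbour.

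**Figure D3:**
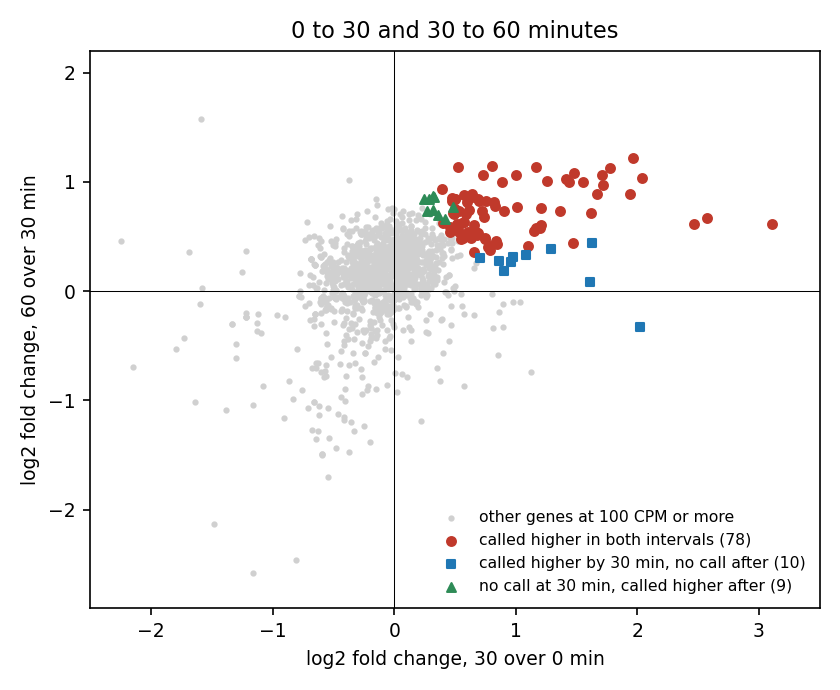
Log2 fold change of 30 over 0 minutes against log2 fold change of 60 over 30 minutes for the members, coloured by course (78, 10 and 9 genes), and for the 1276 other genes at 100 CPM or more at 0 minutes in grey. All members but one lie above 0 on both axes; the exception is Pp3c3_19970 at -0.33 on the vertical axis. The 30 minute libraries enter both axes with opposite sign.

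By level at 0 minutes, the 8 members with 500 CPM or more showed the smallest early changes, with a median ratio of 1.41 at 30 minutes and 2.26 at 60 minutes. The 26 members of 200 to under 500 CPM had medians of 1.65 and 2.70, and the 63 members of 100 to under 200 CPM had 1.74 and 2.68. Levels at 0 minutes are the denominators of these ratios, and a bin of 8 genes is thin. That bin also holds Pp3c1_23900 and Pp3c1_23920, whose counts were almost equal at 0 minutes and which may not be separate, as described below. Pp3c22_5700, the single member of the highest bin with a ratio of 5 or more, had 748.8 and 772.2 CPM at 0 minutes, 1970 and 2078 CPM at 30 minutes and 3651 and 4608 CPM at 60 minutes. Its ratio at 60 minutes was 5.43, and it too was picked out after its values were seen.

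The part of the rise reached by 30 minutes can be set beside that of genes with lower levels. For each member the gain in mean CPM by 30 minutes was expressed as a percentage of the gain by 60 minutes. The median was 38.6% (quartiles 30.9% and 51.9%), and 69 of the 97 members had made under 50% of their gain by 30 minutes. Genes that met the other criteria but had 10 to under 100 CPM at 0 minutes (1017 genes) had a median of 49.6%, and those of 1 to under 10 CPM (878 genes) one of 50.9%. The members' medians were lower at like ratios too: 35.7%, 43.2% and 41.8% for ratios of 2 to under 3, 3 to under 5 and 5 or more, against 50.1%, 50.3% and 49.2% for genes of 10 to under 100 CPM. With total counts alone the medians were 52.1% for the members and 68.2% and 67.1% for the lower groups. A further rise after 30 minutes was called for 89.7% of the members, 72.8% of the genes of 10 to under 100 CPM and 63.8% of those of 1 to under 10 CPM. The power to make a call grows with the number of reads, and the difference between these groups was not tested.

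With TMM scaling, abundant genes with smaller rises had the larger part of their change after 30 minutes. There were 360 other genes at 100 CPM or more at 0 minutes that edgeR called higher at 60 minutes with a ratio under 2. Of these, 54 (15%) were called higher at 30 minutes and 198 (55.0%) rose from 30 to 60 minutes. Their median log2 fold change was 0.15 at 30 minutes and 0.38 from 30 to 60 minutes, against 0.74 and 0.72 in the members. These genes were sorted by the size of their change at 60 minutes, which lowers all their changes, and the difference was not tested. With total counts alone the medians of all genes tested were -0.16 at 30 minutes and -0.31 from 30 to 60 minutes. Whether the order of the intervals in these 360 genes holds under other scalings was not tested.

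In reads, the members took up a growing part of each library. At 0 minutes they held 2.81% and 2.92% of the gene reads, at 30 minutes 4.84% and 4.84%, and at 60 minutes 6.35% and 6.63%. The replicates at each time lay close together, and the times did not overlap. These shares need no scaling, but the 0 and 60 minute libraries chose the members; the 30 minute value of 4.84% ± 0.00243 (SD, n = 2) is the part the choice did not use. Genes of 10 to under 100 CPM that met the other criteria held 15.2% ± 0.385 at 60 minutes, against 3.35% ± 0.0542 at 0 minutes, and those of 1 to under 10 CPM held 10.4% ± 0.238, against 0.480% ± 0.0154 (SD, n = 2). The gain from 0 to 60 minutes was thus 3.62 percentage points for the members, 11.8 for the first of these groups and 9.94 for the second. The 1276 other abundant genes held 41.9% ± 0.596 at 60 minutes, against 59.6% ± 0.861 at 0 minutes. With TMM scaling their median log2 fold change at 60 minutes was 0.07. Of them 360 (28.2%, against 28.4% of all genes tested) were called higher and 269 lower. Their lower share is thus not a general fall on the TMM scale. TMM factors were 1.175 and 1.126 at 0 minutes and 0.875 and 0.793 at 60 minutes.

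**Figure D4:**
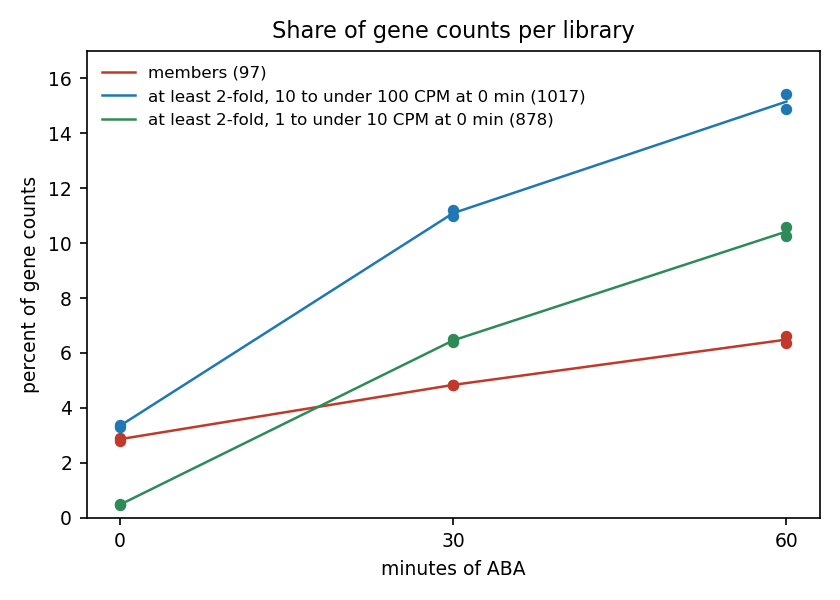
Percent of gene counts per library (points, 2 per time) and mean (lines) for the members and for the genes with at least 2-fold higher means at 60 minutes that started at 10 to under 100 CPM or 1 to under 10 CPM. The members' mean share was 2.86%, 4.84% and 6.49% over the 3 times in order.

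A few genes carried much of that share. Pp3c10_17760 alone took between 8.75% and 12.7% of the members' reads in the 6 libraries, and without it the other 96 members held 5.89% ± 0.144 at 60 minutes, against 2.52% ± 0.0441 at 0 minutes (SD, n = 2). Between 17 and 20 members were enough to hold 50% of the members' reads in every library. Among the 100 genes with the most reads in a library were 3 members in both libraries at 0 minutes, 8 in both at 30 minutes, and 12 and 11 at 60 minutes. Among the 500 genes with the most reads the 0 minute libraries had 20 and 22 members, the 30 minute libraries 53 and 50, and the 60 minute libraries 61 and 60.

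At 60 minutes 12 members differed between the replicates by more than 0.5 on the log2 scale, 10 of them with replicate 2 higher; none did so at 0 or 30 minutes. Pp3c6_2530, singled out as the widest of them, had 100.9 and 122.5 CPM at 0 minutes, 449.5 and 469.2 CPM at 30 minutes and 694.2 and 1192 CPM at 60 minutes. Its 60 minute libraries differed 1.72-fold and still lay above all earlier ones. Of the 12 members, 10 were called higher at 60 than at 30 minutes.

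The members were spread over the ID prefixes of the files. Their IDs carried 25 of the 27 prefixes of the form Pp3c with a number, at most 8 on any one, and none began with Pp3s, a form that 9 of the 1373 abundant genes have. Within a prefix, 3 pairs of members had IDs that follow each other directly in the files, and all 3 pairs, singled out after their counts were seen, had almost the same counts before ABA. Pp3c8_6520 and Pp3c8_6536 had 10533 and 10534 reads in replicate 1 at 60 minutes, against 5209 and 5209 reads in replicate 1 at 0 minutes, and differed by at most 2 reads in every library. Pp3c15_24170 and Pp3c15_24180 had 3425 and 3428 reads in replicate 1 at 60 minutes, against 2485 and 2491 in replicate 1 at 0 minutes, and stayed within 18 reads of each other throughout. Counts so alike in 6 libraries leave it uncertain that these 4 IDs are 4 separate transcripts, and with 1 ID of each of these 2 pairs left out, 95 members remained, 87 called higher at 30 against 0 minutes and 85 at 60 against 30 minutes. Among the 11171 genes with at least 100 reads in every library, 261 pairs of nearby IDs had counts within 2% of each other in all 6 libraries, 99 of them identical, and no read was set aside as ambiguous between genes in any library.

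The third pair parted under ABA. Pp3c1_23900 and Pp3c1_23920 had 22737 and 22672 reads in replicate 1 at 0 minutes and 23105 and 23071 in replicate 2, so that the first was ahead by 65 and 34 reads. At 30 minutes Pp3c1_23900 was ahead by 2848 and 1947 reads, and at 60 minutes by 4695 and 4661 reads. The lead came to 3.10 and 1.84 CPM at 0 minutes, 155.7 and 149.5 CPM at 30 minutes and 333.2 and 334.8 CPM at 60 minutes. The lead was larger at each later time in both replicates, without overlap, while most of the reads remained equal in number. As single genes their ratios at 60 minutes were 2.37 for Pp3c1_23900 and 2.09 for Pp3c1_23920. Of 313 pairs of nearby IDs within 2% of each other in both 0 minute libraries, 27 were over 10% apart in a 60 minute library. Such pairs holding a member numbered 4, and 2 of these were that far apart, this pair among them. Whether Pp3c1_23900 and Pp3c1_23920 share reads was not tested, so the change of each by itself is uncertain.

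**Figure D5:**
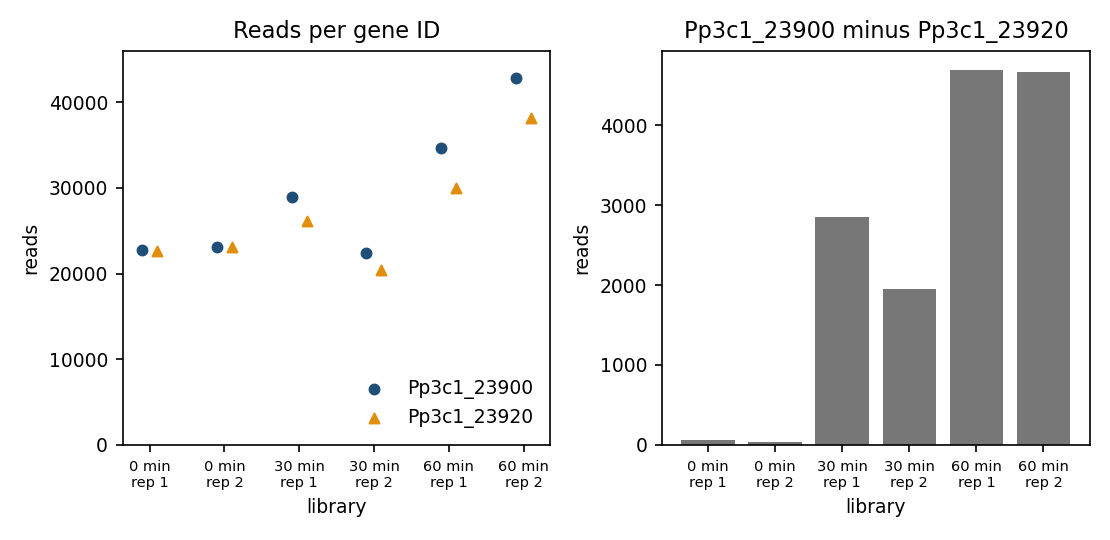
Reads of Pp3c1_23900 and Pp3c1_23920 in the 6 libraries (left, linear axis from 0) and the reads of the first minus those of the second (right). The counts were 4695 and 4661 reads apart at 60 minutes, against 65 and 34 reads at 0 minutes.

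The genes next to the members in the ID numbering were looked at as a feature the choice did not use. Of 188 tested genes with the next ID on either side that were not members, 66 (35.1%) were called higher at 60 than at 0 minutes and 55 (29.3%) lower, against 28.4% and 29.5% of all genes tested. Their median log2 fold change at 60 minutes was 0.04, against -0.04 over all genes tested. Among the 60 whose ID number was at most 10 away, 25 (41.7%) were called higher and 15 (25%) lower, with a median of 0.13. The differences from all genes tested were given no test.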

How the data were processed

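For each library the authors deposited whole-number counts of reads per gene, used as raw counts. Per the submitters' processing notes, cutadapt, TopHat, HTSeq and DESeq2 were used, with versions, genome build, annotation and strand setting not given in the sources used here. The 5 summary rows were left out; reads in no gene were 1.66% to 2.14% of a library and the other 4 summary rows were 0. None of 32926 IDs matched the 27567 genes of the RefSeq table (assembly ASM5946719v1). CPM was 1e+06 times the count, divided by the product of gene total and TMM factor. Genes kept by filterByExpr (minimum count 10, minimum total 15; 18949 genes) were tested with edgeR 4.0.16 (R 4.3.3; glmQLFit, glmQLFTest) in a model of the 3 times over all 6 libraries, adjusted over all genes tested, with calls at an adjusted p below 0.05. SEs are the log2 fold change over the square root of F. The test was checked on simulated counts. The members and lists were chosen with earlier results of these data known. Named by rule were the members with the most reads at 60 minutes and with the highest ratio; others were singled out after their values were seen. Replicate numbers were not treated as pairs. Alternatives were DESeq2 1.42.0, other scalings and filters, the replicate block, fits to 4 libraries, leaving out each library, other limits of the choice and, chosen after seeing the data, leaving out 1 ID of each near-identical pair.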

Additional observations from a re-analysis of the deposited data

Results flagged for a closer look

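Effects at 60 minutes exceeded those at 30 minutes for 87 members by the test of 60 against 30 minutes, in which ABA and time after an addition cannot be told apart. Of all genes tested, 17.4% were called higher in it. The 60 minute libraries also chose the members, which favours this direction. For Pp3c10_17760 the 60 minute effect exceeded the 30 minute effect by 0.75 on the log2 scale, and for Pp3c4_26000 by 0.62. Reads in no gene, which enter no comparison above, made up between 1.73% and 2.14% of the treated libraries, against 1.66% and 1.67% of the 0 minute libraries; their part in the members' values was not tested.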

How the results depend on the processing

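How many genes met the choice depended on scaling and limits. It gave 57 genes with total counts alone, 43 of them among the 97, and 66 with upper-quartile factors, 51 of them among the 97; 43 members were chosen under all scalings run. Limits of 50 and 200 CPM gave 233 and 34 genes, and ratios of 1.5 and 3 gave 222 and 37. Without a 0 or 60 minute library the choice gave 85 to 122 genes (122 without replicate 1 at 60 minutes), and 76 members were chosen in every such case. Their share at 60 minutes was 3.81% with total counts alone, 4.21% with upper-quartile factors and 5.96% to 7.77% with a library left out.

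Members called higher at 30 minutes numbered 67 to 96 with 1 library left out (67 without replicate 1 at 0 minutes, 96 without either library at 60 minutes), and 65 were called in every such fit. For 60 against 30 minutes the range was 58 to 92, with 51 in every fit. A time with 1 library left is assumed to vary like the others. Without a 60 minute library more of all genes tested were called higher at 30 minutes too. Without a 30 minute library fewer of them were called higher from 30 to 60 minutes. Over the fits with 1 library left out, the members' median log2 fold change was 0.73 to 0.8 at 30 minutes. From 30 to 60 minutes it was 0.58 to 0.73. All 97 stayed higher at 60 than at 0 minutes in every fit run, which the choice favours. No median of the members changed sign. The replicate block gave 94, 92 and 97 members for 30 against 0, 60 against 30 and 60 against 0 minutes. Of all genes tested it called 21.2%, 19.8% and 29.7% higher. Fits to only the 4 libraries compared gave 96, 81 and 97 in the same order, against 25.2%, 13.5% and 26.2% of all genes tested. The numbers were not taken as pairs because the labels do not say that a replicate number marks a shared culture. Same-numbered libraries deviated with correlations across genes of -0.0649 for 0 and 30 minutes and 0.0209 for 0 and 60 minutes. For 30 and 60 minutes the correlation was 0.296, so there they deviated partly together. Of 90 comparisons of the 2 genes named by rule under other settings, 80 left the call as it was, 10 lost it and none changed sign. These include 60 against 0 minutes, which the choice used and where no call was lost. They also include the setting without near-identical IDs, which repeats the main fit for these genes. All 10 lost calls were for 30 against 0 or 60 against 30 minutes.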
